A study of Mus musculus with 12 samples.

Results

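The 34 genes described here are those that carry out glycolysis, move glucose and lactate across the cell membrane, or are switched on when oxygen is low, and they were found by gene symbol among the 22416 genes of the count table. They comprise 2 glucose transporters, 11 enzymes of upper glycolysis, 7 of lower glycolysis, 5 genes that set the fate of lactate and pyruvate, 8 hypoxia response genes and Hif1a, a subunit of the transcription factor that drives that response. Their RNA levels were measured by sequencing in mouse embryonic stem cells that were either wild type (eIF2α+/+, WT) or homozygous for the eIF2αA/A knock-in (KI), whose eIF2α cannot be phosphorylated at the regulatory serine. Both genotypes were kept for 6 days in LIF/2i, a medium with leukaemia inhibitory factor and the MEK and GSK3 inhibitors PD0325901 and CHIR99021, or in LIF without the inhibitors. All 4 groups received KnockOut Serum Replacement and 1 mM sodium pyruvate, so pyruvate was also supplied from outside, and each had 3 libraries. The study's question was what role phosphorylation of eIF2α has in naive pluripotency.

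Glycolysis splits glucose into pyruvate and yields ATP without oxygen. Lactate dehydrogenase turns pyruvate into lactate, which leaves through monocarboxylate transporters. Inside the mitochondrion, pyruvate dehydrogenase turns pyruvate into acetyl-CoA unless pyruvate dehydrogenase kinases such as Pdk1 switch it off. When oxygen falls, prolyl hydroxylases such as Egln1 and Egln3 no longer mark HIF-1α for degradation, and HIF raises transcription of many glycolytic genes. In cultured pluripotent cells, glycolysis is active in naive cells and becomes the main source of energy when cells move to a primed state.

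The 4 members that were lower in KI than in WT cells in LIF/2i, Slc16a3, Egln3, Aldoc and Slc2a1, are shown with their promoters because they passed together in 1 direction, with Pdk1, which rose in LIF in both genotypes, for comparison. Each sequence runs 5′ to 3′ along the gene's strand from 250 bases before to 50 bases after the RefSeq transcription start, on build GRCm38.p6. Capitals mark ACGTG and GCGTG, the core letters of the site that HIF binds, searched on both strands, so that the reverse complements CACGT and CACGC are in capitals too.
Slc16a3, chr11:120948817-120949116, plus strand: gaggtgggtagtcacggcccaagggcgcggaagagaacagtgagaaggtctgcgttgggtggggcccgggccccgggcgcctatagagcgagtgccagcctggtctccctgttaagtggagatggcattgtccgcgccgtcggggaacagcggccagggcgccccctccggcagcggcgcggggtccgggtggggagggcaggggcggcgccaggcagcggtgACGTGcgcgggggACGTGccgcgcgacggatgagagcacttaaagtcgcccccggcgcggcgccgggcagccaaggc
Egln3, chr12:54203825-54204124, minus strand: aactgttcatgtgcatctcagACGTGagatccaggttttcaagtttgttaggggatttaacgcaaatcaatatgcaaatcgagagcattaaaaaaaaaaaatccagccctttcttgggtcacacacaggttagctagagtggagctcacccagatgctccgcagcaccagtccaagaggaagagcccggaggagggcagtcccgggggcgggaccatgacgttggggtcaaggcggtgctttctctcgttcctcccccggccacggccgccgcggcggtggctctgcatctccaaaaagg
Aldoc, chr11:78322823-78323122, plus strand: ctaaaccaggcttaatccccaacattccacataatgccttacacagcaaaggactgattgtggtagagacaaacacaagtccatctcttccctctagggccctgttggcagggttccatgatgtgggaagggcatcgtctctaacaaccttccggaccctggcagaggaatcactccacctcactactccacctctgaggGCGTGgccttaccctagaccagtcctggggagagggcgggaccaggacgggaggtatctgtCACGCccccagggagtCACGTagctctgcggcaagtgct
Slc2a1, chr4:119108495-119108794, plus strand: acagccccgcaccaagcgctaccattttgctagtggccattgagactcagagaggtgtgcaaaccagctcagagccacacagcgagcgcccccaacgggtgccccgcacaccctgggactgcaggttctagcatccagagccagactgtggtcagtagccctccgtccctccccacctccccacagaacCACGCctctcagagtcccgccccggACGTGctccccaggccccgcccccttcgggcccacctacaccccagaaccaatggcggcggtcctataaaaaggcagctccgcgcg
Pdk1, chr2:71872974-71873273, plus strand: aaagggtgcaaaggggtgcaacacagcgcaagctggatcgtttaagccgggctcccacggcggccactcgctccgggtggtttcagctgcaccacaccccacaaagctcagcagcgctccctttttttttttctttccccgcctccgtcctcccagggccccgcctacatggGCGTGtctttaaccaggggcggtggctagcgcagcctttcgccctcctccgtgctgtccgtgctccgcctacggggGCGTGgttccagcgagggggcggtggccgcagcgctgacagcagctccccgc
RefSeq promoters were matched by symbol for 33 of the 34 members, all but Slc2a3, and where a gene had several the one nearest the counted transcript was taken. ACGTG occurred in 19 of the 33 member promoters (57.6%) and in 19.6% of all 32851 mouse promoters of this length. GCGTG occurred in 20 of 33 (60.6%) and in 32.4% of all. One or both occurred in 27 of 33 (81.8%) and in 43.8% of all. A match describes the letters only, and hypoxia-induced genes were part of the rule that chose the members.

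The libraries held 2307219 to 9713857 counts, so that 3 counts, the floor of detection, correspond to 0.309 to 1.3 CPM, counts scaled by library size. In WT LIF, the counts of replicates 1 and 3 were as alike as 2 draws from 1 library (within sampling noise), so the pair was counted as 1 sample, which leaves n = 2 for WT LIF and n = 3 for the other groups. All 10 pluripotency markers were detected in every library, with a summed level of 3555 to 5133 CPM. Whether replicates are separate cultures, or each genotype 1 clone or several, is not in the labels, so p-values reflect the spread between these samples alone, which may be technical. Summed over 4 Y-linked genes, 3 libraries stood apart from their groups. The level was 44.8 CPM in the second WT LIF/2i replicate, but 261.1 and 259.1 in the first and the third. In KI cells it was 41.6 and 36.7 CPM in replicate 1 (LIF/2i, then LIF), against 1.43 to 3.90 CPM in the other 4 KI libraries, and WT LIF libraries had 77.6 to 164.6 CPM. The counts below are therefore also given without these 3 libraries, WT LIF/2i replicate 2 and KI replicate 1 in both media, which leaves n = 2 in every group. Markers of primitive endoderm, 17 genes of which 0 to 3 were at 0 in a library, summed to 352.0 to 642.7 CPM in WT LIF/2i, 982.1 to 1305 in WT LIF, 357.8 to 387.1 in KI LIF/2i and 672.9 to 707.8 in KI LIF. Markers of trophectoderm, 13 genes with 0 to 3 at 0, summed to 222.9 to 331.7 CPM outside WT LIF, where they reached 450.4 to 596.5 CPM. Markers of fibroblasts, which can serve as a feeder layer, are 14 genes with 0 to 4 at 0 and summed to 2055 to 5328 CPM, with Fn1, which stem cells also express, at means of 1723 to 4841 CPM. Without Fn1 the other 13 summed to 125.5 to 363.5 CPM in WT LIF/2i, 185.4 to 952.5 in WT LIF, 131.4 to 485.7 in KI LIF/2i and 377.9 to 684.6 in KI LIF. Of these, the collagen gene Col1a1 was at 1.42, 1.73 and 3.04 CPM in WT LIF/2i, 13.0 and 169.5 in WT LIF, 5.12, 8.84 and 10.6 in KI LIF/2i and 38.1, 72.8 and 60.1 in KI LIF. Vim did not follow Col1a1 and made up most of the sum without Fn1 in WT LIF/2i. It was at 360.2, 238.8 and 99.7 CPM in WT LIF/2i and 104.3 and 287.9 in WT LIF. In KI cells Vim was at 452.1, 83.9 and 77.05 CPM in LIF/2i and 462.5, 135 and 130.7 in LIF. Of 11 tested fibroblast genes, Fn1 among them, 8 had fold changes above 0 in LIF in WT cells and 3 below. Lum was at 0 in every library. Eif2s1, which encodes eIF2α, was counted at 25.7 ± 2.32, 30.5 ± 2.87, 44.2 ± 13.3 and 37.0 ± 1.00 CPM (SD, n = 3, 2, 3 and 3) in WT LIF/2i, WT LIF, KI LIF/2i and KI LIF, and a point mutation of it is not seen in gene counts.

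Only coding sequence was counted, for 1 transcript of each gene, and several glycolytic enzymes have many near-identical pseudogenes, which bears on how their levels read. Each member's coding sequence was compared with the GENCODE M21 transcripts of all other genes by stretches of 30 bases. No stretch was shared by 18 members, and most stretches were shared by 9. Pgk1 and Pgam1 shared 100% of theirs, Gapdh 94.3% with 340 other genes, Bnip3 91.2%, Eno1 89.9%, Pkm 79.8%, Ldha 58.8%, Gpi1 58.1% and Ldhb 55.4%. Gapdh, a glycolytic enzyme and a common reference gene, had 6 counts in the 12 libraries together and was at 0 in 8 of them. It did not pass the filter on low counts and is the only member that was not tested. Per kilobase of coding sequence, mean levels in WT LIF/2i had a median of 49.4 CPM over the 18 members without shared sequence (3.57 to 873.1) and of 39.6 CPM over the 9 with most stretches shared (0.0825 to 136.3). How reads with several matches were counted is not given in the sources used here, so levels of those 9 members, and of Aldoa (43.0% shared) and Tpi1 (33.1%), are uncertain. The share of a member's reads that was lost was not tested.

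**Figure D1:**
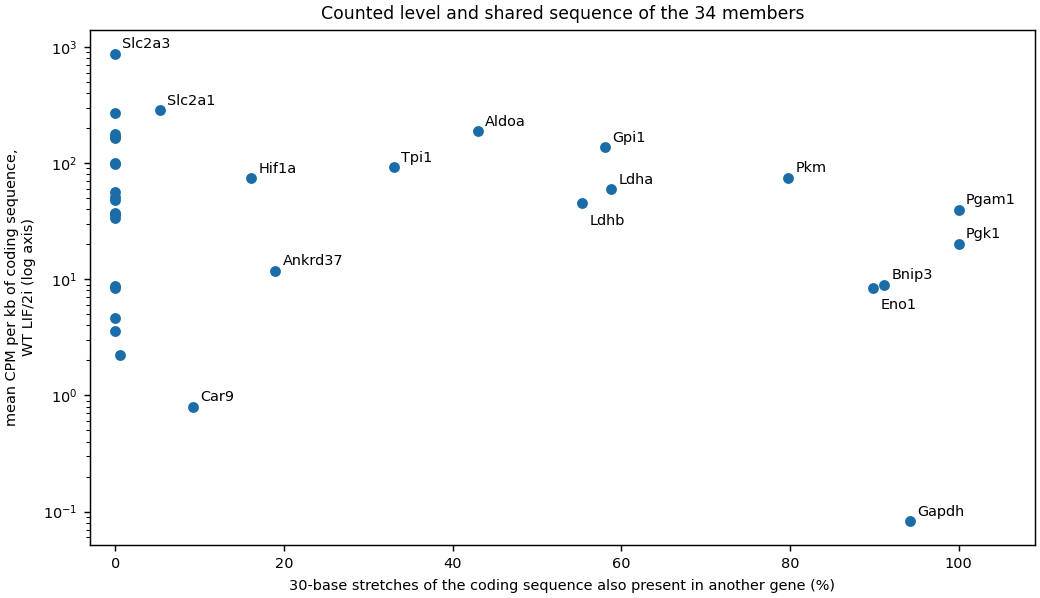
Mean level per kilobase of coding sequence in WT LIF/2i (CPM per kb, log axis, n = 3) against the share of 30-base coding stretches that also occur in another gene (%), 1 point per member. Gapdh, with 94.3% shared, lies lowest at 0.0825 CPM per kb, and Slc2a3, with none shared, highest at 873.1.

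Members moved together among the WT LIF/2i libraries, which bears on every comparison with that group. For each tested member the log2(CPM + 1) of a sample was taken relative to the WT LIF/2i mean, and the median over the 33 members was 0.03, -0.47 and 0.50 in WT LIF/2i replicates 1, 2 and 3. The same medians were -0.50 and -0.62 in the WT LIF samples, -0.47, -0.54 and -0.58 in KI LIF/2i and -0.71, -0.49 and -0.61 in KI LIF, while the median of all 13239 genes stayed between -0.02 and 0.02. WT LIF/2i replicate 2 thus lay close to the highest sample of the other 3 groups, and replicate 3 lay above all other samples. In WT LIF/2i replicate 3, 25 of the 33 members had their highest level of the 11 samples (75.8%), against 12.5% of all genes. Among the WT LIF/2i libraries the order was replicate 3, then 1, then 2 for 28 of 33 members (84.8%) and for 18.7% of all genes. The summed primitive endoderm markers had the same order in these libraries, with 642.7, 513.3 and 352.0 CPM, but were higher in every LIF library, where members were low. WT LIF/2i replicate 2 was also the library low in Y-linked transcripts. The part of any of these in the members' order was not tested. In bulk RNA, fewer cells that express a gene and less RNA per cell cannot be told apart.

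**Figure D2:**
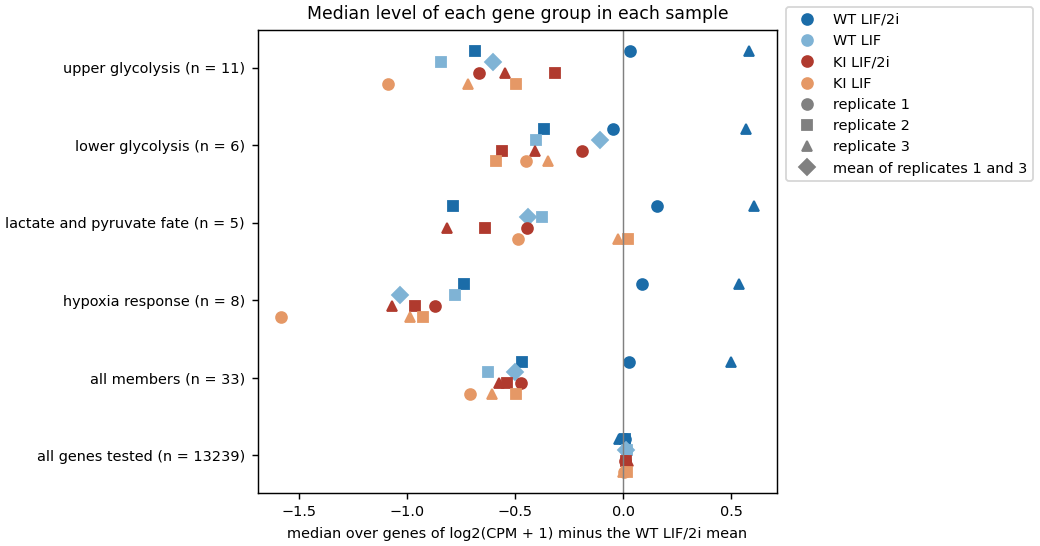
Median over genes of log2(CPM + 1) minus the WT LIF/2i mean (x axis, log2 units) for 4 groups of members, all 33 tested members and all 13239 genes tested, 1 point per sample, with colour for the group and shape for the replicate. WT LIF/2i replicate 3 lies highest in each of the 5 member rows, WT LIF/2i replicate 2 lies among the samples of the other groups in the upper glycolysis, lower glycolysis and lactate rows and just above them in the hypoxia response row and over all members, and all genes stay near 0.

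In LIF/2i, members were mostly lower in KI than in WT cells, and 4 fell: the lactate exporter Slc16a3, the prolyl hydroxylase Egln3, the aldolase Aldoc and the glucose transporter Slc2a1. These are 4 of 33 tested members at an adjusted p under 0.05 (edgeR's quasi-likelihood test), where 2.22% of all genes passed, 1.25% lower and 0.974% higher. No member rose. Here and below, a member is said to have passed, without another fit being named, for this fit of all 4 groups. Of its 33 members, 24 passed in no comparison, of which 17 were called under at least 1 alternative and 7 (Pfkfb3, Pfkfb4, Pgam1, Eno1, Eno2, Car9 and Hif1a) under none. The same share of all genes was not computed, and single alternatives called up to 22.0% of all genes. The 17 are thus not a result about the members. Of the 33, 28 had a fold change below 0, with a median log2 fold change of -0.59, while all genes had a median of 0.02 with 47.8% below 0. At an unadjusted p under 0.05 there were 20 of 33 (60.6%), against 20.5% of all genes. The samples of the groups did not overlap for 11 members that were lower and 2 that were higher (Eno3 and Hif1a), against 11.1% and 11.7% of all genes. By role, 11 of 11 upper glycolysis and 8 of 8 hypoxia response genes had fold changes below 0, with medians of -0.60 and -1.44. Without the 3 libraries apart in Y-linked transcripts, 16 members passed, 15 lower and Ldhb higher, in a fit that called 8.56% of all genes. Beside the 4, these were Ankrd37, Bnip3, Gpi1, Ldha, P4ha1, Pdk1, Pfkl, Pfkp, Pgk1, Tpi1, Vegfa and Ldhb. That fit leaves out WT LIF/2i replicate 2, the lowest of its group for 28 of 33 members (84.8%, against 29.7% of all genes). Leaving it out raises the WT LIF/2i mean of those members. Larger falls from WT LIF/2i in that fit, here and below, are therefore no separate result. Calls differed between tools: limma-voom called 4 (2.52% of all genes) but Pfkp and Vegfa in place of Aldoc and Slc16a3, and DESeq2 called 12 (6.89%), the 4 with Pfkp, Vegfa, Ankrd37, Hk1, P4ha1, Pfkl and Pgk1 lower and Eno3 higher. Without WT LIF/2i replicate 1, WT LIF/2i replicate 3 or KI LIF/2i replicate 3, edgeR called no member (0.486%, 1.2% and 0.606% of all genes). Without KI LIF/2i replicate 2 it called Vegfa alone (1.01%), without KI LIF replicate 2 it called 2 (1.21%) and without KI LIF replicate 3 it called 1 (1.04%). Calls over all genes thus fell in these fits too. Without WT LIF/2i replicate 2 it called 8 (0.788% of all genes), without KI LIF/2i replicate 1 also 8 (7.58%), and fitting only the groups compared called none (0.528%). The median was -0.41 without WT LIF/2i replicate 3 and -0.88 without replicate 2. Of the markers of other cell types, 13 of 14 tested primitive endoderm genes had fold changes below 0 here (median -0.81) and 8 of 11 fibroblast genes above 0 (median 1.45, with no overlap for 6), none past the threshold. Their part in the members' differences was not tested.

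In LIF, no member passed between the genotypes with edgeR, where 0.144% of all genes did (0.0151% higher, 0.128% lower). At an unadjusted p under 0.05 there were 4 of 33 (12.1%), near the 10.7% of all genes. These were Pfkp, Eno1 and Vegfa, which were lower, and Ldhb, which was higher. DESeq2 called 1, Pfkp (1.66% of all genes), and limma-voom called none. The median log2 fold change over the 33 was -0.09, against 0.00 for all genes, with 20 of 33 below 0 (60.6%, against 49.9% of all genes). Groups did not overlap for 5 members that were higher and 10 that were lower, against 16.0% and 15.8% of all genes. Pfkp was the member with the smallest p and was also called without the 3 libraries apart in Y-linked transcripts (with 2.74% of all genes), without KI LIF/2i replicate 1 (0.401%), with only the groups compared (0.253%) and with all 12 libraries counted separately (1.1%). Of 14 tested primitive endoderm genes, all had fold changes below 0 (median -1.62) and 1 passed.

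The difference between the 2 genotype comparisons, tested as an interaction, was not significant with edgeR for any member or any gene (0.0% of all genes). Its smallest adjusted p among members was 0.669, for Slc16a3, and 6 of 33 members were at an unadjusted p under 0.05 (18.2%), against 6.03% of all genes. The interaction was above 0 for 27 of 33 members and below 0 for 6 (18.2%, against 53.5% of all genes). Its median was 0.59, against -0.03 for all genes, and 0.26 without WT LIF/2i replicate 3. The same WT LIF/2i libraries enter the genotype comparison in LIF/2i, so this direction is not independent of that one. DESeq2, which called 23 genes, and limma-voom, which called none, called no member either. The genotype effect is thus not shown to differ between the media for any member. Slc16a3 alone passed when the 3 libraries apart in Y-linked transcripts were left out (0.0229% of all genes). That fit was chosen after seeing the data and has n = 2 in every group. It leaves out WT LIF/2i replicate 2, where Slc16a3 was at 18.8 CPM, against 102 and 300.1 in replicates 1 and 3, so this call is no separate result.

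**Figure D3:**
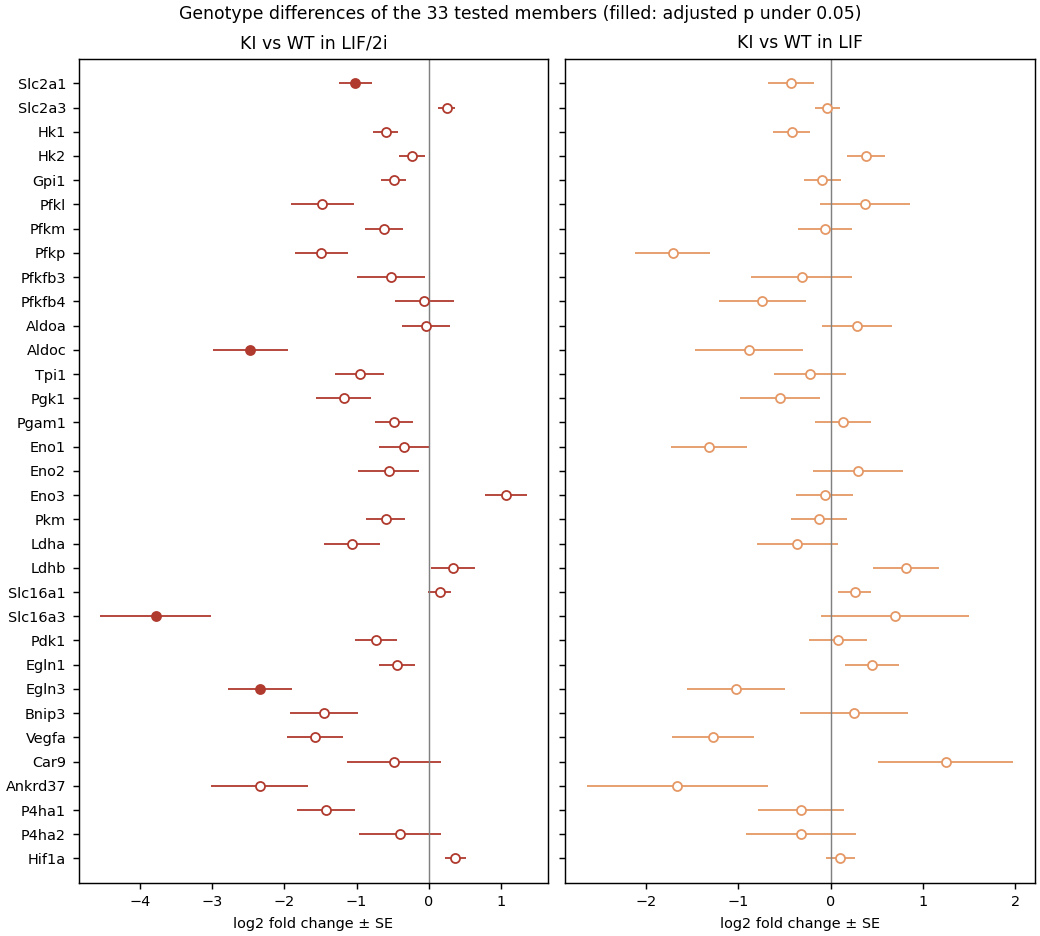
Log2 fold change of KI over WT cells (x axis, ± SE) for the 33 tested members in LIF/2i (left) and in LIF (right), with filled points for adjusted p under 0.05. In LIF/2i 28 of 33 points lie left of 0 and 4 are filled, and in LIF 20 of 33 lie left of 0 and none is filled.

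Between media, WT cells in LIF had more Eno3 and Pdk1 and less Slc2a3 and Hk1 than in LIF/2i. These 4 of 33 members passed, 2 in each direction, where 13.0% of all genes did (6.31% higher, 6.69% lower), so the members' share was near that of all genes. Over the 33, the median log2 fold change was -0.57 with 27 below 0, against 0.01 for all genes with 49.4% below 0, and 21 were at an unadjusted p under 0.05 (63.6% against 27.5%). Groups did not overlap for 3 members that were higher and 13 that were lower, against 24.3% and 24.5% of all genes. This comparison and the one of genotypes in LIF/2i share the WT LIF/2i libraries, so their common direction is not independent. Without WT LIF/2i replicate 2 edgeR called 14 (7.99% of all genes) and without KI LIF/2i replicate 1 it called 7 (16.4%). Without the 3 libraries apart in Y-linked transcripts it called 20, 2 higher and 18 lower, where it called 15.0% of all genes. WT LIF/2i replicate 2, low for most members, is left out there too. Fewer members passed without WT LIF replicate 2 or without both agreeing WT LIF libraries. Each of these fits leaves 1 WT LIF sample, so only their median log2 fold changes are given, -0.60 and -0.66. In this comparison 6 of 11 tested fibroblast markers rose and Fn1 fell (median log2 fold change 1.495), 5 of 11 trophectoderm markers rose (median 1.71) and 3 of 14 primitive endoderm markers rose (median 1.34), and their part in the members' differences was not tested.

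KI cells in LIF had more Pdk1 and less Slc2a3, Hk1 and Pfkp than KI cells in LIF/2i. These are 4 of 33 members, where 9.06% of all genes passed (4.05% higher, 5.01% lower). The median over the 33 was -0.07, against -0.03 for all genes, with 19 below 0 (57.6%, against 52.6% of all genes). The members' median was 0.01 with library totals alone, 0.02 without KI LIF/2i replicate 2 and 0.14 without the 3 libraries apart in Y-linked transcripts. Groups did not overlap for 7 members that were higher and 4 that were lower, against 13.3% and 13.9% of all genes. With the KI replicate number as a block, in the KI libraries alone, 10 of 31 tested members passed, where 16.6% of all genes did (8.4% higher, 8.22% lower). This paired fit takes the number as a pairing that no label states. Deviations of same-numbered samples correlated across media at 0.50, 0.37 and 0.22 for numbers 1, 2 and 3. Correlations with another number reached 0.214 for numbers 2 and 3, so number 3 was hardly told apart from a mismatch. In that paired fit Slc2a1, Pfkl, Pfkm, Slc16a3, Pdk1 and P4ha2 were higher in LIF and Slc2a3, Hk1, Pfkp and Aldoa lower. Of the markers, 3 of 11 fibroblast genes rose and Fn1 fell (median 0.97), 2 of 14 primitive endoderm genes rose (median 0.69) and 2 of 11 trophectoderm genes rose and 1 fell (median 0.56). In the unpaired fit edgeR called Pdk1 and Slc2a3 alone without KI LIF replicate 1 (8.14% of all genes) or without KI LIF replicate 3 (3.74%).

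**Figure D4:**
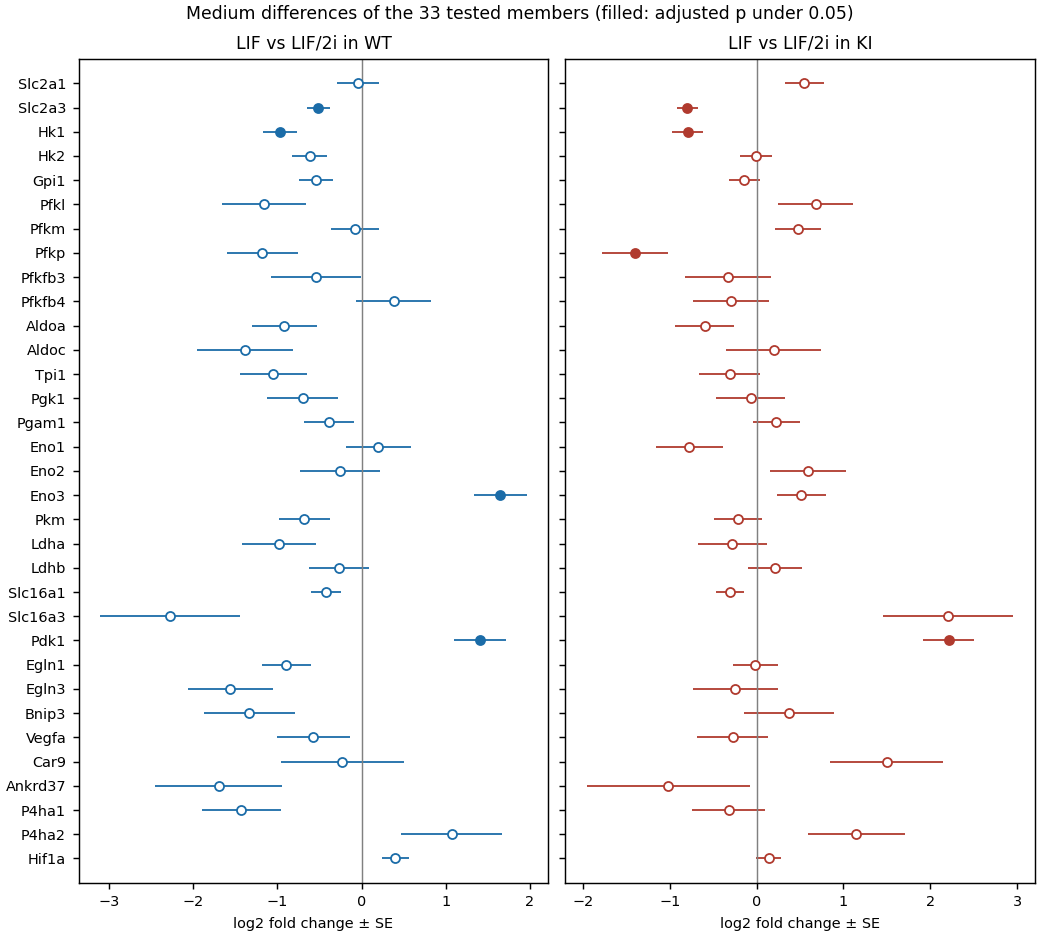
Log2 fold change of LIF over LIF/2i (x axis, ± SE) for the 33 tested members in WT cells (left) and KI cells (right), unpaired fit, with filled points for adjusted p under 0.05. Pdk1 lies far right and Slc2a3 and Hk1 left of 0 in both panels, each filled, while Slc16a3 lies left in WT and right in KI cells, not filled in either.

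**Figure D5:**
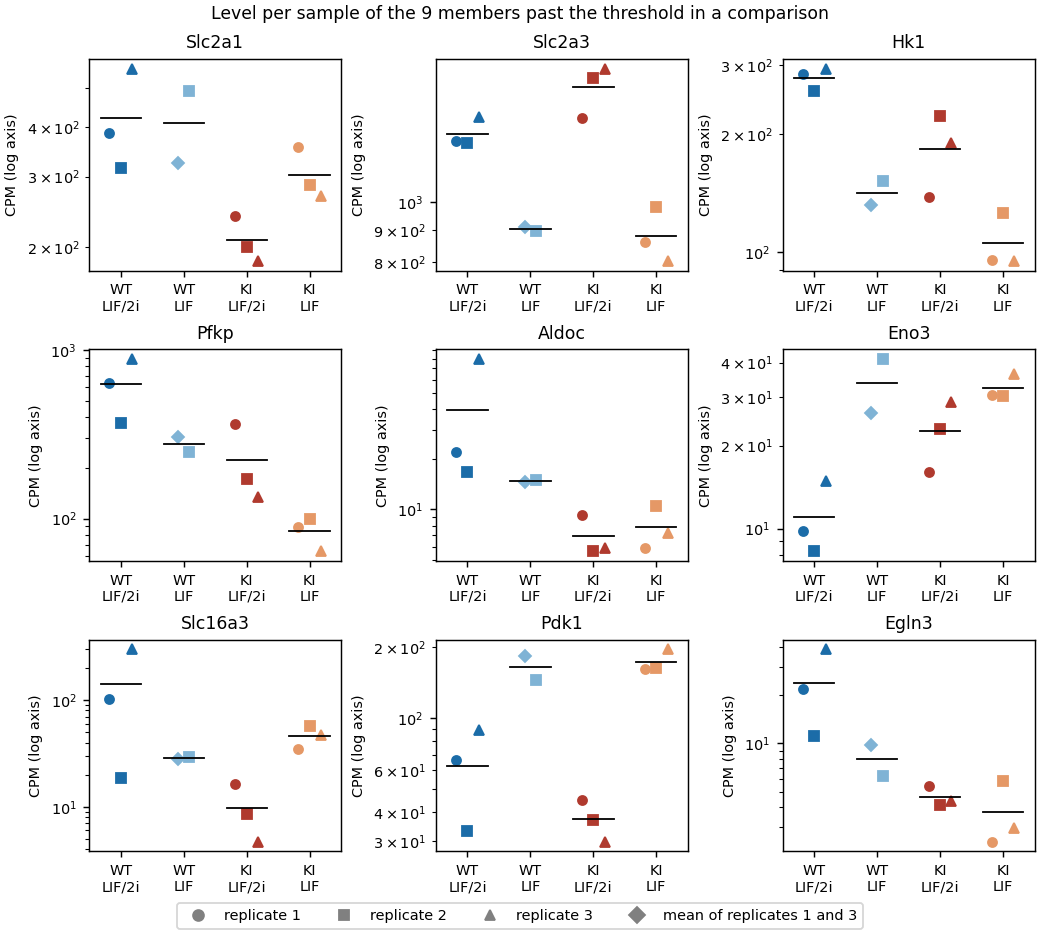
Level of the 9 members that passed in a group comparison in each of the 11 samples (CPM, log axis), with shape for the replicate and a line at each group's mean. Pdk1 and Slc2a3 separate by medium in both genotypes, and Slc16a3, Aldoc and Egln3 have their highest level in WT LIF/2i replicate 3.

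Glucose enters through Slc2a1 (GLUT1), the widespread transporter, and Slc2a3 (GLUT3), one of higher affinity. Slc2a3 (chr6:122727809-122742745, minus strand, GRCm38) was counted at 1254, 1245 and 1375 CPM in WT LIF/2i (replicates in the order 1, 2 and 3, here and below), 1366, 1590 and 1645 in KI LIF/2i, 912 and 898 in WT LIF (first the mean of replicates 1 and 3, then replicate 2) and 860.3, 982 and 802 in KI LIF. Every LIF sample was below every LIF/2i sample. Log2 fold changes are given ± SE with the adjusted p of edgeR's test. Slc2a3 fell in LIF in WT cells (-0.51 ± 0.14 with adjusted p = 0.0291) and in KI cells (-0.80 ± 0.12 with adjusted p = 0.00227). The fall in KI cells passed under each of the 24 alternatives run. In WT cells it did not pass without any 1 of the 3 WT LIF/2i libraries (adjusted p = 0.0539 to 0.0615). Without WT LIF replicate 2, which leaves 1 WT LIF sample, the log2 fold change was -0.50.
Slc2a1 was counted at 386, 314.5 and 559.5 CPM in WT LIF/2i, 238.5, 199.8 and 184 in KI LIF/2i, 324 and 492 in WT LIF and 357, 286 and 268 in KI LIF. In LIF/2i every KI sample was below every WT sample, and in LIF the genotypes overlapped. Slc2a1 was lower in KI cells in LIF/2i (-1.01 ± 0.22 with adjusted p = 0.0408), and without any 1 of WT LIF/2i replicates 1 and 3, KI LIF/2i replicates 2 and 3 and KI LIF replicates 2 and 3 it did not pass (adjusted p = 0.0615 to 0.135). Without the 3 libraries apart in Y-linked transcripts it was -1.31, with adjusted p = 0.00798. In KI cells, the paired fit had Slc2a1 higher in LIF, by 0.56 ± 0.11 on the log2 scale (adjusted p = 0.0067), where the unpaired fit gave 0.55 ± 0.22 (adjusted p = 0.157). Per coding length, Slc2a1 made up 24.2 ± 4.42% of the summed level of both transporters in WT LIF/2i, 12.1 ± 2.52% in KI LIF/2i (SD, n = 3), 30.9 ± 6.48% in WT LIF (n = 2) and 25.7 ± 3.42% in KI LIF (n = 3).

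Hexokinase, the first enzyme of glycolysis, traps glucose in the cell as its phosphate. Hk1 (chr10:62269104-62379908, minus strand), the widespread isoform, was counted at 284, 257 and 293 CPM in WT LIF/2i, 132 and 152 in WT LIF, 138.5, 223 and 189.5 in KI LIF/2i and 95.5, 126 and 94.8 in KI LIF. Both genotypes were lower in LIF with no overlap between media. Hk1 fell in LIF in WT cells (-0.97 ± 0.20 with adjusted p = 0.00936) and in KI cells (-0.80 ± 0.18 with adjusted p = 0.0178). The call in WT cells was lost only without WT LIF replicate 2 or without both agreeing WT LIF libraries, each of which leaves 1 WT LIF sample. Over 23 alternatives the fold change there was -1.08 to -0.88. In KI cells Hk1 did not pass without KI LIF/2i replicate 2, KI LIF replicate 1 or KI LIF replicate 3 (adjusted p = 0.0529 to 0.0883). With the replicate block in KI cells it was -0.77 ± 0.13 with adjusted p = 0.00271. KI samples were also below WT samples in each medium, but the differences, -0.60 ± 0.18 in LIF/2i and -0.42 ± 0.20 in LIF, did not pass (adjusted p = 0.0959 and 0.484). Hk2, the isoform that HIF induces, was counted at 496, 371 and 506 CPM in WT LIF/2i, 302 and 294 in WT LIF, 458, 407 and 304 in KI LIF/2i and 445, 321 and 398 in KI LIF. It passed in no comparison, and 7 alternatives called it between media in WT cells, where its WT LIF samples were the lowest of all 11. Per coding length, Hk1 was 37.3 ± 2.51% of both hexokinases in WT LIF/2i, 31.5 ± 2.57% in WT LIF, 31.7 ± 7.95% in KI LIF/2i and 21.2 ± 5.55% in KI LIF.

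Phosphofructokinase catalyses the committed step, and its isoforms are the platelet (Pfkp), liver (Pfkl) and muscle (Pfkm) types. Pfkp (chr13:6579768-6648777, minus strand) was counted at 634, 366 and 884 CPM in WT LIF/2i, 305 and 249 in WT LIF, 364, 171 and 134.5 in KI LIF/2i and 89.3, 99.5 and 63.9 in KI LIF. The KI LIF samples were all below the other 8, and KI LIF/2i replicate 1 lay close to WT LIF/2i replicate 2. Pfkp fell in LIF in KI cells (-1.40 ± 0.38 with adjusted p = 0.0394). That call was lost in 12 of 24 alternatives, among them leaving out KI LIF/2i replicate 1 (-0.85, adjusted p = 0.117), WT LIF/2i replicate 1, WT LIF replicate 2 or any KI LIF library (adjusted p = 0.0519 to 0.158) or the 3 libraries apart in Y-linked transcripts (-0.89, adjusted p = 0.0572). The paired fit gave -1.28 ± 0.23 with adjusted p = 0.00664. Between genotypes Pfkp did not pass in LIF/2i (-1.49 ± 0.37 with adjusted p = 0.0596) or in LIF (-1.71 ± 0.41 with adjusted p = 0.148), although KI samples were below WT samples in both media. In LIF/2i it was called by limma-voom, DESeq2 and 4 other alternatives.
Pfkl was highest in WT LIF/2i replicate 3 at 690 CPM and 93.8 to 315 CPM elsewhere, and Pfkm ranged from 60.0 to 166.6 CPM. Both were higher in LIF in the paired KI fit (0.76 ± 0.17 with adjusted p = 0.0129 for Pfkl, 0.47 ± 0.13 with adjusted p = 0.0326 for Pfkm). In the unpaired fit neither passed, but Pfkl was called between genotypes in LIF/2i by DESeq2 and without WT LIF/2i replicate 2, without KI LIF/2i replicate 1 or without the 3 libraries, and between media in WT cells without WT LIF/2i replicate 2 or the 3 libraries. Per coding length, Pfkp made up 56.4 ± 4.97% of the 3 isoforms in WT LIF/2i, 48.3 ± 3.13% in WT LIF, 47.9 ± 9.19% in KI LIF/2i and 19.8 ± 3.68% in KI LIF, while Pfkl made up 30.8 ± 8.42%, 29.99 ± 1.84%, 30.6 ± 1.18% and 52.4 ± 5.18%. In KI LIF, Pfkl was thus the most abundant isoform in all 3 samples, and Pfkp was in the other 8 samples. The shares were not tested.

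Aldolase splits the hexose into a pair of trioses. Aldoc (chr11:78322968-78327781, plus strand), the brain-type isoform, was counted at 22.0, 16.7 and 79.7 CPM in WT LIF/2i, 14.5 and 15.0 in WT LIF, 9.29, 5.60 and 5.88 in KI LIF/2i and 5.88, 10.4 and 7.19 in KI LIF. WT LIF/2i replicate 3 stood far above the other 10 samples, and KI samples were below WT samples in both media. Aldoc was lower in KI cells in LIF/2i (-2.47 ± 0.52 with adjusted p = 0.0363). Without WT LIF/2i replicate 3 its fold change was -1.47 with adjusted p = 0.056. It also did not pass with limma-voom (adjusted p = 0.0736) or without any 1 of WT LIF/2i replicate 1, WT LIF replicate 2, KI LIF/2i replicates 2 and 3 and KI LIF replicates 2 and 3 (0.0514 to 0.125), and without the 3 libraries apart in Y-linked transcripts it was -3.14 (adjusted p = 0.0063). Aldoa, the main isoform of most tissues, was counted at 225, 133 and 351 CPM in WT LIF/2i, 148 and 102 in WT LIF, 160.3, 252 and 278 in KI LIF/2i and 102.5, 184 and 168 in KI LIF. Its groups overlapped in each comparison. It was called between media in WT cells without the 3 libraries apart in Y-linked transcripts, and in the paired KI fit, where it was lower in LIF (-0.59 ± 0.12, adjusted p = 0.00688). Of the remaining upper glycolysis genes, Gpi1 (134.6 to 294.9 CPM) and Tpi1 (31.7 to 129.8 CPM), which interconvert hexose and triose phosphates, and Pfkfb3 (4.07 to 20.7 CPM) and Pfkfb4 (1.27 to 4.25 CPM), which make and remove an activator of phosphofructokinase, passed in no comparison. Gpi1 was called under 4 and Tpi1 under 6 alternatives in the comparisons with WT LIF/2i.

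In lower glycolysis, Eno3 (chr11:70657204-70662513, plus strand), the muscle-type enolase, moved against most members. It was counted at 9.79, 8.26 and 14.9 CPM in WT LIF/2i, 26.2 and 41.2 in WT LIF, 16.1, 23.0 and 28.9 in KI LIF/2i and 30.5, 30.2 and 36.4 in KI LIF. The WT LIF/2i samples were the lowest 3 of the 11. Eno3 rose in LIF in WT cells (1.65 ± 0.31 with adjusted p = 0.00594), and the call was lost in 1 of 23 alternatives, without WT LIF replicate 2 (1.28), which leaves 1 WT LIF sample. In KI cells the difference was 0.52 ± 0.28 (adjusted p = 0.294), and KI cells exceeded WT cells in LIF/2i by 1.07 ± 0.29 (adjusted p = 0.0774), neither past the threshold. Pgk1, the first ATP-forming enzyme of the pathway, was counted at 21.6, 12.9 and 41.0 CPM in WT LIF/2i, 16.9 and 13.6 in WT LIF, 11.6, 10.5 and 10.7 in KI LIF/2i and 6.23, 11.9 and 13.1 in KI LIF. Every KI sample was below every WT sample of the same medium, with log2 fold changes of -1.18 ± 0.38 in LIF/2i (adjusted p = 0.115) and -0.55 ± 0.43 in LIF (adjusted p = 0.712). Pgam1 (13.9 to 38.0 CPM), Eno1 (3.34 to 13.1 CPM), Eno2 (2.43 to 7.60 CPM) and the pyruvate kinase gene Pkm (58.8 to 179.7 CPM) passed in no comparison, though 3 alternatives called Pkm between media in WT cells. Pgk1, Pgam1, Eno1 and Pkm are among the members with most coding stretches shared.

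Pdk1 (chr2:71873224-71903858, plus strand), which switches off pyruvate dehydrogenase, rose in LIF in both genotypes. It was counted at 66.2, 33.2 and 88.8 CPM in WT LIF/2i, 45.0, 37.0 and 29.9 in KI LIF/2i, 183 and 145 in WT LIF and 162, 163 and 196 in KI LIF. All 5 LIF samples were above all 6 LIF/2i samples. The rise passed in WT cells (1.40 ± 0.31 with adjusted p = 0.0123) and in KI cells (2.21 ± 0.29 with adjusted p = 0.0011). The rise in KI cells passed under each of 24 alternatives, with log2 fold changes of 2.08 to 2.42, and in WT cells it did not pass without WT LIF replicate 2 (1.56, adjusted p = 0.0521) or without both agreeing WT LIF libraries (1.22, adjusted p = 0.0919). Pdk1 is also known as a HIF target. Of the 8 hypoxia response genes, 7 had fold changes below 0 in the same comparison in WT cells (median -1.12), against 49.4% of all genes. In KI cells it was 5 of 8 (median -0.13), against 52.6% of all genes, and none passed in either genotype. WT LIF/2i replicate 3 was the highest sample of 6 of the 8 (75.0%, against 12.5% of all genes). A part of HIF in the rise of Pdk1 was not tested.
Slc16a3 (chr11:120949081-120960868, plus strand) encodes MCT4, a lactate exporter. It was counted at 102, 18.8 and 300.1 CPM in WT LIF/2i, 27.8 and 29.4 in WT LIF, 16.2, 8.59 and 4.70 in KI LIF/2i and 34.6, 57.2 and 47.0 in KI LIF. The WT LIF/2i libraries spread the widest, and WT LIF/2i replicate 2 was close to KI LIF/2i replicate 1 and below both WT LIF samples. Slc16a3 was lower in KI cells in LIF/2i (-3.78 ± 0.77 with adjusted p = 0.0319). Without the 3 libraries apart in Y-linked transcripts the log2 fold change was -4.89 (adjusted p = 0.000796), and without WT LIF/2i replicate 3 it was -2.58 (adjusted p = 0.0747). It also did not pass when WT LIF/2i replicate 1, KI LIF/2i replicate 2 or 3 or KI LIF replicate 3 was left out (adjusted p = 0.0535 to 0.118), with limma-voom (0.124) and with no filter (0.105). In KI cells, Slc16a3 was higher in LIF than in LIF/2i by 2.31 ± 0.41 in the paired fit (adjusted p = 0.00949) and by 2.21 ± 0.75 in the unpaired fit (adjusted p = 0.0911), whereas the same difference in WT cells was -2.28 ± 0.83 (adjusted p = 0.0939). The interaction was 4.48 ± 1.12 with adjusted p = 0.669.
Ldha, the subunit that favours lactate, was counted at 61.3, 24.6 and 107.9 CPM in WT LIF/2i, 34.5 and 30.2 in WT LIF, 35.5, 25.4 and 30.7 in KI LIF/2i and 24.2, 27.3 and 23.7 in KI LIF. Ldhb, the subunit that favours pyruvate, was counted at 38.1, 52.2 and 45.9, 40.8 and 34.7, 32.8, 65.7 and 74.0 and 97.3, 53.4 and 48.7 CPM in the same order. Neither passed in the fit of all 4 groups. Ldha was called between genotypes in LIF/2i and between media in WT cells without WT LIF/2i replicate 2 and without the 3 libraries apart in Y-linked transcripts, and Ldhb between genotypes in LIF/2i without those 3. Both share most coding stretches with other genes. WT LIF/2i replicate 3 was the highest sample of Ldha, and KI LIF replicate 1 the highest of Ldhb. Slc16a1 (MCT1), the widespread monocarboxylate transporter, ranged from 186.9 to 309.8 CPM and passed in no comparison, with a call between media in WT cells when those 3 libraries were left out. Per coding length, Slc16a3 made up 29.3 ± 21.2% of both transporters in WT LIF/2i, 13.2 ± 0.08% in WT LIF, 3.32 ± 1.81% in KI LIF/2i and 16.9 ± 1.28% in KI LIF.

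Among the hypoxia response genes, Egln3 (chr12:54178981-54203860, minus strand), a prolyl hydroxylase that is itself induced by HIF, was counted at 21.8, 11.1 and 38.9 CPM in WT LIF/2i, 9.80 and 6.22 in WT LIF, 5.43, 4.11 and 4.36 in KI LIF/2i and 2.42, 5.84 and 2.96 in KI LIF. KI samples were below WT samples in both media. Egln3 was lower in KI cells in LIF/2i (-2.34 ± 0.45 with adjusted p = 0.0247), and in LIF the difference was -1.02 ± 0.53 (adjusted p = 0.531). In LIF/2i it did not pass when WT LIF/2i replicate 1 or 3 or KI LIF/2i replicate 2 or 3 was left out (adjusted p = 0.0659 to 0.0974), and without the 3 libraries apart in Y-linked transcripts it was -2.84 (adjusted p = 0.00353). Egln3 lies 24.7 Mb from Eif2s1, the mutated gene, on chromosome 12. Vegfa, the endothelial growth factor, was counted at 59.9, 46.9 and 72.1 CPM in WT LIF/2i, 44.6 and 35.3 in WT LIF, 17.9, 32.5 and 9.23 in KI LIF/2i and 9.69, 22.5 and 16.5 in KI LIF. All 6 KI samples were below all 5 WT samples, with log2 fold changes of -1.57 ± 0.39 in LIF/2i (adjusted p = 0.0596) and -1.27 ± 0.44 in LIF (adjusted p = 0.319), neither past the threshold. In LIF/2i limma-voom, DESeq2 and 5 other alternatives called it. Bnip3, which marks mitochondria for removal, was counted at 5.69, 2.13 and 7.30 CPM in WT LIF/2i, 1.74 and 2.12 in WT LIF, 2.30, 1.62 and 1.34 in KI LIF/2i and 1.73, 2.29 and 2.96 in KI LIF. WT LIF/2i replicates 1 and 3 were the 2 highest samples, and Bnip3 passed in no comparison, with calls under 4 alternatives.
The collagen prolyl hydroxylase genes P4ha1 and P4ha2 ranged from 11.1 to 101.6 CPM and from 2.27 to 16.4 CPM. P4ha2 was higher in LIF in KI cells in the paired fit, by 1.17 ± 0.33 (adjusted p = 0.0339). P4ha1 passed in no comparison, with calls under 8 alternatives in the comparisons with WT LIF/2i. Egln1, the chief oxygen sensor, ranged from 19.0 to 53.5 CPM and passed in none, with calls under 5 alternatives between media in WT cells. Car9, a carbonic anhydrase, had 2 to 13 counts per library and Ankrd37 1 to 39, so both were near the limit of detection. Neither passed, and 4 alternatives called Ankrd37. Hif1a, the subunit that oxygen destabilises as protein, was counted at 209, 188 and 162 CPM in WT LIF/2i, 245 and 248 in WT LIF, 227, 229.7 and 268 in KI LIF/2i and 236, 249 and 312 in KI LIF. The WT LIF/2i samples were the lowest 3 of the 11, with replicate 3, the highest sample of most members, the lowest of all, and Hif1a passed in no comparison of groups (adjusted p = 0.121 to 0.871). Hif1a lies 4.91 Mb from Eif2s1, and its protein was not measured here.

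Genes of the same pathways outside the members were tested in the same fit, with the shares over all genes given above for each comparison. Of 32 tested hypoxia-induced genes outside the members, Tfrc, the transferrin receptor, and Pgm2, a phosphoglucomutase, were lower in KI cells in LIF/2i (-0.75 and -0.73, adjusted p = 0.035 and 0.0429), which is 6.25% of the list, against 1.25% of all genes. The list's median there was -0.52, with 25 of 32 below 0. In LIF, 1 rose in WT cells and 5 fell (15.6% of the list, against 6.69% of all genes), among them Tfrc (-1.52, adjusted p = 0.000699), Pgm2 (-1.04) and the histone demethylase Kdm4b (-1.14, adjusted p = 0.00783), and in KI cells none rose and 3 fell (9.38%, against 5.01%), Tfrc (-1.01), Pgm2 (-0.69) and Wsb1 (-0.94). Of 17 oxygen sensing genes none passed between genotypes. In LIF, WT cells had less Siah2 (-2.16, adjusted p = 0.00387), a ligase that acts on prolyl hydroxylases, and Vhl (-1.07, adjusted p = 0.0191), the ligase subunit that binds hydroxylated HIF, and more Hif1an (0.72, adjusted p = 0.0336), which hydroxylates HIF at an asparagine. KI cells in LIF had more Hif3a (2.05, adjusted p = 0.0241).
Of 14 genes of pyruvate import into the mitochondrion and its use there, Pdp2, the phosphatase that opposes Pdk1, fell in LIF in WT cells (-2.03, adjusted p = 0.00108) and in KI cells (-1.67, adjusted p = 0.00164). It went from 153, 119 and 85.4 CPM to 29.1 and 29.3 CPM in WT cells and from 92.6, 69.3 and 68.3 to 20.8, 30.5 and 20.3 CPM in KI cells, with no overlap, where Pdk1 rose. Other kinases of the list did not rise with Pdk1 in WT cells past the threshold. Pdk4 went from 23.4, 16.0 and 25.2 to 7.90 and 6.06 CPM and Pdk3 from 65.9, 54.1 and 55.3 to 47.1 and 44.1 CPM. Neither fall passed, and Pdk2 overlapped between media. Dld, a subunit of pyruvate dehydrogenase and related complexes, was higher in KI cells in LIF/2i (0.63, adjusted p = 0.0479) and in WT cells in LIF (0.72, adjusted p = 0.0133). Of 18 glycolytic isoforms and transporters outside the members, the fructose transporter Slc2a5 rose in LIF in WT (1.78, adjusted p = 0.0201) and KI cells (1.71, adjusted p = 0.0256). In WT cells Hkdc1, a hexokinase domain protein, rose (3.30) and Bsg, the chaperone of monocarboxylate transporters, fell (-0.58). Hkdc1 was at 0.158, 0.133 and 0.304 CPM in WT LIF/2i, under the floor of 3 counts, and at 2.21 and 1.67 CPM in WT LIF. The size of its rise is therefore uncertain. Of 12 pentose phosphate genes edgeR called none in any comparison. At an unadjusted p under 0.05 there were 4, 2, 0 and 4 between genotypes in LIF/2i and LIF and between media in WT and KI cells. In that order these are 33.3%, 16.7%, 0.0% and 33.3% of the list, against 20.5%, 10.7%, 27.5% and 23.7% of all genes.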

How the data were processed

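Raw counts per gene were deposited by the authors as 1 table, not normalized. Per the file headers, each value belongs to the coding sequence of a single transcript. The tools listed in the submitters' processing notes are UMI-tools 1.0.1, cutadapt 3.4 and Bowtie 1.3.0, without their roles. Not given in the sources used here are the build, the annotation, the counting tool and how strand and multiply matching reads were treated, so GENCODE M21 (GRCm38) coordinates were attached by transcript identifier, found for 32 of the 34 members (not Tpi1 and Ldhb).

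Members and lists were chosen with earlier results of these data known. The 13239 genes, 33 members among them, that passed filterByExpr (minimum count 10) were fitted in 1 edgeR 4.0.16 model (R 4.3.3, TMM, glmQLFit robust, glmQLFTest, two-sided) with 1 mean per group. P-values were adjusted by Benjamini-Hochberg over all genes, with a threshold of 0.05. The 11 samples count the agreeing WT LIF replicates 1 and 3 once, at their mean (chi-square per degree of freedom 0.858 over 12373 genes). TMM factors were 0.945 to 1.04. Levels are TMM-scaled CPM, and standard errors come from the F statistic. The fit was tested on simulated data.

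Values per sample are given for members past the threshold and for Hk2, Aldoa, Pgk1, Ldha, Ldhb, Bnip3, Vegfa and Hif1a. Other lists name at most 4 called genes per comparison.

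Deviations of KI samples with the same number correlated across media (0.50, 0.37 and 0.22 for numbers 1, 2 and 3, each over 0.1). The highest correlations with another number were -0.218, 0.214 and 0.214. The numbers were taken to pair these samples, which was clear for number 1 and hardly shown for number 3. This rests on the data, since no label states a pairing. Other comparisons had a pair under 0.1. Alternatives were DESeq2 1.42.0, limma-voom (limma 3.58.1), DESeq2's size factors, library totals, no filter, a minimum count of 30, only the groups compared, 12 libraries counted separately, the replicate block and leaving out each library. Those without both agreeing WT LIF libraries, without the 3 libraries apart in Y-linked transcripts and with KI libraries alone and the block were chosen after seeing the data.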

Additional observations from a re-analysis of the deposited data

How the results depend on the processing

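Counts of members past the threshold stayed within 1.5 times of those reported under every alternative run except the following, given with the share of all genes that the same fit called. Between genotypes in LIF/2i, where 4 had passed (2.22% of all genes), DESeq2 called 12 (6.89%), a fit of only the groups compared 0 (0.528%), and the fit without the 3 libraries apart in Y-linked transcripts 16 (8.56%). Leaving out 1 library at a time gave 0 to 8, with 64 to 1001 genes called in all. In LIF, where 0 had passed (0.144%), DESeq2 (1.66%), only the groups compared (0.253%), 12 libraries counted separately (1.1%) and the fit without the 3 libraries (2.74%) each called 1, Pfkp, and leaving out 1 library gave 0 to 1. Between media in WT cells, where 4 had passed (13.0%), DESeq2 called 9 (14.8%), 12 libraries counted separately 13 (21.1%) and the fit without the 3 libraries 20 (15.0%). Leaving out 1 library other than WT LIF replicate 2 gave 3 to 14. Fewer passed without WT LIF replicate 2 or without both agreeing WT LIF libraries, which each leave 1 WT LIF sample. Between media in KI cells, leaving out 1 library gave 2 to 5 around 4. The interaction had 1 member, Slc16a3, without the 3 libraries (0.0229% of all genes). An equal count did not mean the same members: limma-voom called 4 between genotypes in LIF/2i, with Pfkp and Vegfa in place of Aldoc and Slc16a3. The causes were not tested.

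With the replicate block, fitted on 12 libraries, edgeR called 8 members between genotypes in LIF/2i (4.37% of all genes), 1 in LIF (1.34%), 11 between media in WT cells (22.0%) and 4 in KI cells (11.4%). Outside KI cells same-numbered samples did not deviate together in every pair, so these block values rest on a shared number only. In KI libraries alone the block called 10 (16.6%). No fold change of a called member reversed in any alternative run. Members with few counts (Car9, Ankrd37, Pfkfb4, Bnip3) and those that share sequence limit what these libraries can show.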
